A study of Mus musculus with 9 samples.

Results

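MHC class I molecules carry peptides from inside the cell to its surface, where CD8+ T cells read them. The heavy chain, encoded in mice by H2-K1 and H2-D1 among others, pairs with β2-microglobulin (B2m). The peptides are cut by the proteasome, pumped into the endoplasmic reticulum by the transporter made of Tap1 and Tap2, and loaded with the help of tapasin (Tapbp). In cells that respond to interferon, and in many immune cells without added interferon, the inducible subunits Psmb8, Psmb9 and Psmb10 take the places of the constitutive catalytic subunits Psmb5, Psmb6 and Psmb7, which gives the immunoproteasome. Nlrc5 is the transactivator of the class I genes, and interferon raises the expression of most of them. These 10 genes (H2-K1, H2-D1, B2m, Tap1, Tap2, Tapbp, Psmb8, Psmb9, Psmb10 and Nlrc5) were taken by symbol from the 18049 genes of the deposited table. All 10 were listed, and all 10 passed the filter on low values (mean over the 9 libraries of 10 or more normalized counts), as did 14705 of all genes.

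The RNA of 9 clones of tumor-derived primary cells (MPC) was sequenced. The cells came from WTg mice, which carry the EL1-Luc/EL1-Tag transgenes (luciferase and SV40 large T antigen under the pancreatic elastase I promoter) together with CAG-Mettl3, in which a ubiquitous promoter drives Mettl3. Attached tumor cells were passaged and single colonies were isolated, so each library is 1 clone, and all 9 clones belong to 1 condition, with the treatment given as none although a protocol field names the PLK1 inhibitor NMS-P937. No clone without the Mettl3 transgene is among them, the ages of the mice are not stated, and the tumors came from mice of mixed FVB/N and BL/6 background. The column names hold 3 prefixes of unknown meaning, called here A (1 library), B (4 libraries, B1 to B4) and C (4 libraries, C1 to C4). They are not groups of the labels.

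The values are normalized counts, which are reads scaled by 1 factor per library, and between 12198040 and 20453928 reads per library were recovered. Library A was the shallowest, followed by 16526389 reads. The B libraries also differed from the others in the sex-linked genes. The labels name the cell type as fibroblasts. All 16 macrophage markers were measured above the floor of 3 reads in every library, and their summed level was 588654 to 930343 normalized counts, against 369380 to 1011080 for 14 fibroblast markers. Of the B cell markers, Ms4a1 and Cd79a were not listed, Cd4 was the single T and NK cell marker of 6 that was listed, and the 7 epithelial markers summed to 27.5 to 331 normalized counts, with Epcam at 0 in all 9 libraries and Krt19, Cdh1 and Muc1 above the floor in each. In these bulk samples fewer cells of a type and less RNA per cell cannot be told apart.

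The promoters were searched for short elements that members share ahead of the gene. Of the 10 members, 8 had an entry among the RefSeq promoters of GRCm38.p6 (entries for Tap2 and Nlrc5 are missing). The 250 bases before each start were searched on both strands for the kB element GGGGATTCC, the X2 element TGACGC, an interferon regulatory element GAAANNGAA, the interferon gamma activated element TTCNNNGAA, CCAAT, the GC box GGGCGG and TATAAA. Only these exact letters were counted, so a member without a match may hold an element in another form. H2-K1 and H2-D1 were the members with the letters of the kB element, found in 0.213% of all 32851 promoters. They were also the members with the letters of the X2 element, found in 6.12%. In both genes the X2 element began 70 bases after the kB element, and an inverted CCAAT box began 25 bases after the X2 element. The stretches of 30 bases that hold them are shown 5′ to 3′ on the strand of the gene, with the searched elements in capitals, to compare the genes. The kB stretch lies at chr17:34000439-34000468 (minus strand) for H2-K1 and at chr17:35262913-35262942 (plus strand) for H2-D1, and 29 of its 30 bases are identical.
H2-K1, kB: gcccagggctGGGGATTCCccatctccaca
H2-D1, kB: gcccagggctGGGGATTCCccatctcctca
The stretch from the X2 element to the CCAAT box lies at chr17:34000359-34000388 for H2-K1 and at chr17:35262993-35263022 for H2-D1, and 23 of its 30 bases are identical.
H2-K1, X2 to CCAAT: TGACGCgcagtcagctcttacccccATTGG
H2-D1, X2 to CCAAT: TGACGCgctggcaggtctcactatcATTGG
Both H2-K1 stretches fall inside the span that RefSeq gives the gene (chr17:33996012-34000619), since it has more than 1 start.

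B2m lies on another chromosome (chr2:122147687-122153082). It was the single member with a match to the searched letters GAAANNGAA of the interferon regulatory element, which are found in 7.13% of promoters. Its 250 bases, chr2:122147437-122147686 on the plus strand, are shown because B2m had the closest pattern to H2-K1 among the members. Capitals mark TATAAA, the interferon regulatory element and CCAAT, in that order, with the first and the last inverted.
B2m: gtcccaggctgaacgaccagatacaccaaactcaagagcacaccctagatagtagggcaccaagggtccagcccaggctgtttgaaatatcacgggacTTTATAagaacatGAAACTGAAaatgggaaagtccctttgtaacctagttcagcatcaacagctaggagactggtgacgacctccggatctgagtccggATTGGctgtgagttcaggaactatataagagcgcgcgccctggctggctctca

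Tap1 and Psmb9 start back to back, with 225 bases between their starts. This interval, chr17:34187331-34187555, is shown on the strand of Tap1, with its CCAAT box and its inverted GC box in capitals. CCAAT is found in 33.8% and the GC box in 32.7% of promoters.
Tap1 and Psmb9: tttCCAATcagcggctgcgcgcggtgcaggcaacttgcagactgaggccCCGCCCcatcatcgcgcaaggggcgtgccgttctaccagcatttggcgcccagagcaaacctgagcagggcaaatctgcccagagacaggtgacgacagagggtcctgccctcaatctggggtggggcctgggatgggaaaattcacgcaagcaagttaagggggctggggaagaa
Psmb8 (chr17:34198195-34201454) and Tap2 (chr17:34204479-34216321) lie in the same cluster. Psmb8 held the interferon gamma activated element, found in 7.02% of promoters. Tapbp (chr17:33919478-33929290) held CCAAT and the GC box, and Psmb10 (chr8:105935728-105938392) held none of the searched elements. Nlrc5 lies at chr8:94434335-94527272. A match is a description of letters and not a site that was measured.

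All 10 members were expressed in all 9 clones, and each spread over the clones by 1.42-fold to 2.25-fold between its lowest and highest library. The heavy chain gene H2-K1 was at 8861, 11524 and 14835 normalized counts in its lowest, median and highest library (mean 11556 ± 2108, SD, n = 9). H2-D1, the other classical heavy chain, was at 19873, 25449.9 and 32436 normalized counts. B2m, the light chain, was at 21003, 25260.1 and 29729.5 normalized counts. C2 was the lowest library for all 3 of these genes, and B3 or B1 the highest, with C4 close behind B1 for H2-D1. Levels of different genes are not ranked, since the values are not per length. Counts of H2-K1 and H2-D1 are uncertain between each other and their near-identical relatives, and the part of the FVB/N and BL/6 alleles in them was not tested.

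The transport and loading genes spread over a similar range. Tap1, which forms the peptide pump with Tap2, was at 532, 691 and 875 normalized counts in its lowest, median and highest library. Tap2 was at 963, 1209 and 1389 normalized counts. Tapbp, which bridges the pump and the class I molecule, was at 3475, 5024 and 6596 normalized counts, a 1.90-fold spread. Library A was the lowest for Tap2 and Tapbp, and C1 for Tap1.

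The immunoproteasome subunits were at the same time the least and the most variable members. Psmb10 was at 736, 825 and 1048 normalized counts in its lowest, median and highest library, with an SD of 0.17 on the log2 scale, and 68.1% of all genes were at least as variable. Psmb8 was at 904, 1319 and 1571 normalized counts. Psmb9 was at 269 normalized counts in A, at 514, 443, 583 and 452 in B1 to B4 and at 299, 259, 397 and 381 in C1 to C4, with an SD of 0.41 on the log2 scale, and 30.02% of all genes were at least as variable. All 4 B libraries were above A and the 4 C libraries for Psmb9. The lowest value, in C2, rested on 166 reads, with a 95% Wilson interval of 223 to 302 normalized counts, and the value with the fewest reads, in A, on 123, with an interval of 226 to 321.

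Nlrc5, the transactivator, followed another order than the other members. It was at 643 normalized counts in A, at 766, 917, 725 and 558 in B1 to B4 and at 598, 687, 477 and 1031 in C1 to C4. C4 was the highest and C3 the lowest library, so the C libraries held both ends of the range. Its spread of 2.16-fold was the second largest after Psmb9.

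**Figure D1:**
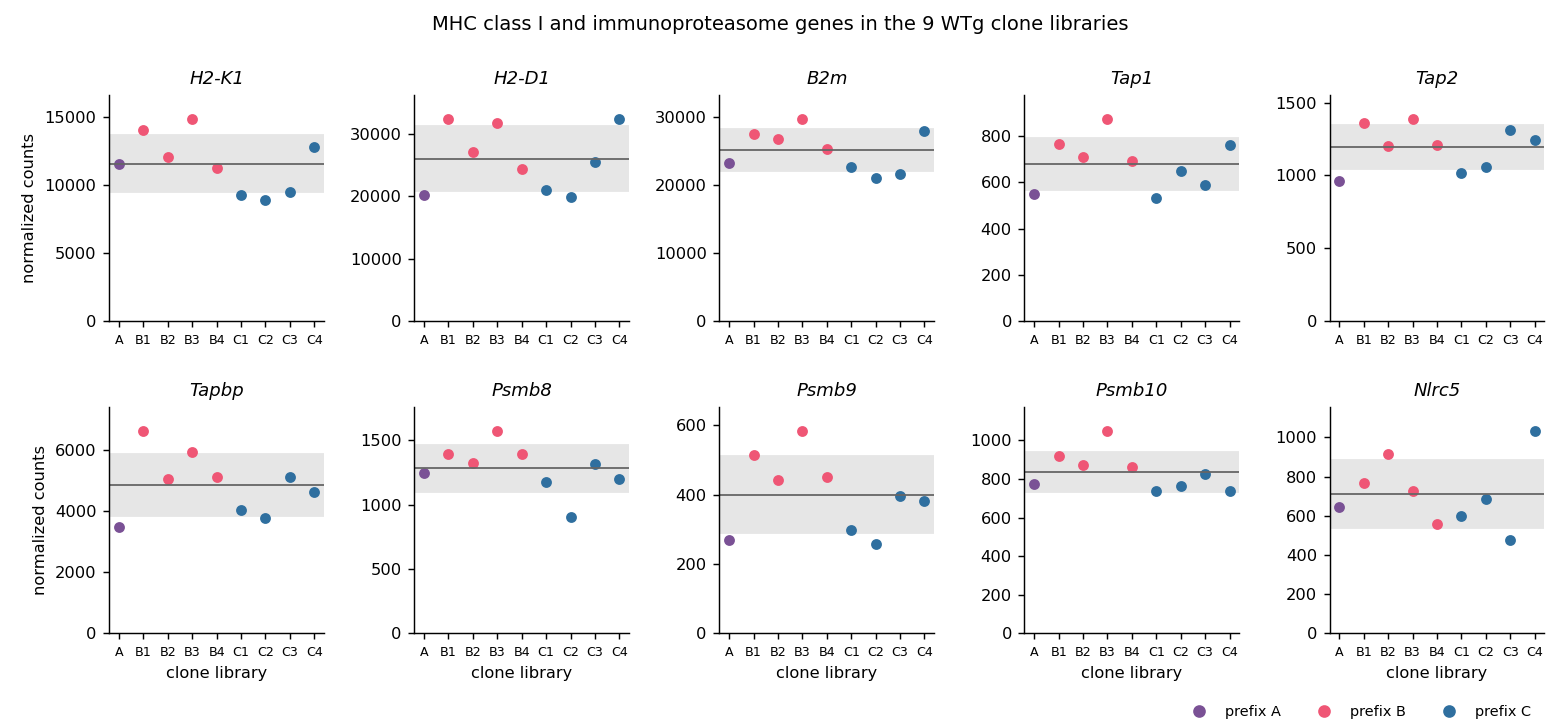
Normalized counts (vertical axis, from 0) of each of the 10 members in the 9 clone libraries (horizontal axis). Points are libraries coloured by column-name prefix, the line is the mean and the grey band the mean ± 1 SD (n = 9); B3 is the highest point for 7 members, whereas Nlrc5 peaks in C4.

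The members tended to share their high and low libraries. B3 held the highest value for 7 of the 10 members (Psmb8, Psmb9, Psmb10, H2-K1, B2m, Tap1 and Tap2), against 17.9% of all genes that peaked in B3. B1 was the highest for H2-D1 and Tapbp, and C4 for Nlrc5. C2 held the lowest value for 5 members, against 17.6% of all genes. The mean z-score of the 10 members ran from -1.05 in C2 to 1.28 in B3, with C4 at 0.39 as the highest of the C libraries. The median SD on the log2 scale over all genes was 0.25, and 5 of the 10 members were below it, so the members were spread around the usual gene in variability.

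The ranges of the B and C libraries did not overlap for 3 of the 10 members, Psmb8, Psmb9 and Psmb10, with B above C in each. Among all 14705 genes, 5.74% had B above C and 4.55% had C above B, and no member had C above B. The libraries of B or C share a prefix and not a labelled condition, so no test was made. Psmb9 was at 498 ± 65.0 normalized counts in B and 334 ± 66.0 in C (SD, n = 4 each). Psmb8 was at 1422 ± 106 in B and 1150 ± 175 in C. With each library scaled to its total, the ranges of Psmb8 met, and 2 members stayed apart. The mean of the normalized counts was higher in B for all 10 members under each of the 3 scalings tried. The mean of the deposited log2 values was also higher in B for all 10, as for 52.8% of all genes. The median difference of these log2 means was 0.27 for the members against 0.02 for all genes. Nlrc5 had the smallest of these differences, 0.12. Markers of cell types also differed between the prefixes, with a median of 0.32 for 16 macrophage markers (B above C for 2) and of -0.69 for 14 fibroblast markers (C above B for 3), and their part in the difference was not tested. The B libraries also differed from C in the sex-linked genes, as given above, and the part of sex was not tested either.

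Each inducible subunit was then set against the constitutive subunit whose place it takes. These are ratios of normalized counts that are not per length, so they compare libraries and not subunits. Psmb8 to Psmb5, the chymotrypsin-like pair, was 0.56 ± 0.09 (SD, n = 9), from 0.41 in C2 to 0.69 in B1. Psmb10 to Psmb7, the trypsin-like pair, was 0.41 ± 0.08, from 0.30 in C1 to 0.53 in B3. Psmb9 to Psmb6, the caspase-like constitutive subunit, was 0.16 ± 0.05, from 0.0926 in A to 0.229 in B3. For this last pair all 4 B libraries (0.180 to 0.229) lay above the 4 C libraries (0.0962 to 0.161), whereas B and C met for the other pairs. The 3 constitutive subunits themselves had r of -0.45 to -0.62 with the mean z-score of the members, and within the prefixes Psmb6 was at 0.18. B1 and B3 were the highest libraries for all 3 ratios, and A and C1 were among the lowest 3 for each.

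**Figure D2:**
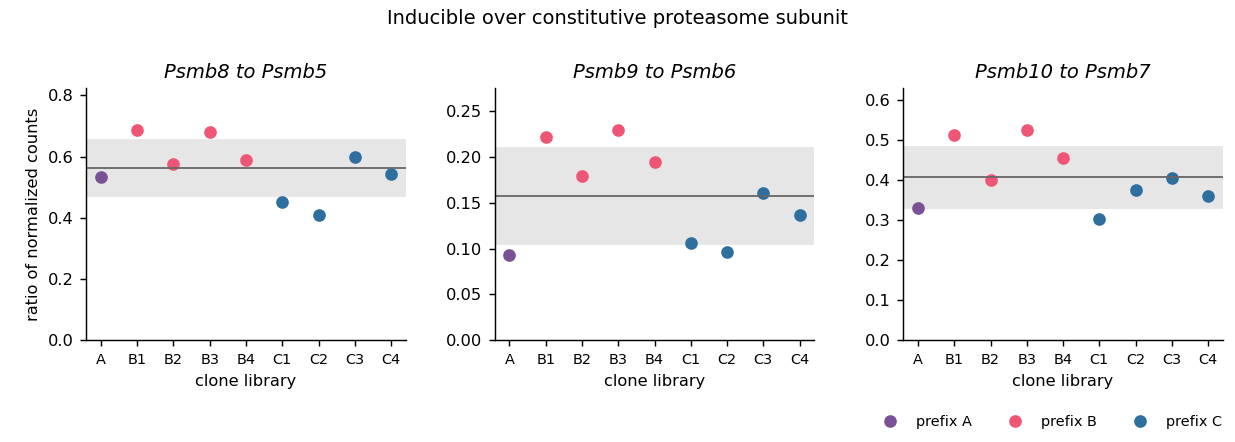
Ratio of normalized counts (vertical axis, from 0) of each inducible catalytic subunit to the constitutive subunit it replaces, in the 9 clone libraries (horizontal axis). Points are coloured by prefix, the line is the mean and the grey band ± 1 SD (n = 9); for Psmb9 to Psmb6 the B libraries lie at 0.180 to 0.229 and the C libraries at 0.0962 to 0.161.

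Correlations among the members are given as descriptions over 9 libraries that share prefixes, with no test. Of the 45 pairs of members, 44 had a positive Pearson r on the log2 scale, with a median of 0.73. The pair Psmb8 and Nlrc5 was at -0.04. A share over pairs of all genes is not given, so these counts have no baseline. The closest pairs were Tapbp and Psmb9 (r = 0.95), H2-K1 and B2m (r = 0.95) and Tap2 and Tapbp (r = 0.94). B2m, whose product pairs with the heavy chain, was at rank 6 of 12300 genes by r with H2-K1. By r with B2m, H2-K1 was at rank 10. Centred within the prefixes B and C, H2-K1 and B2m stayed at r = 0.95 over 8 libraries, and 42 of the 45 pairs were positive, with a median of 0.61. Tap1 and Psmb9, which share the interval of 225 bases, had r = 0.79 over the 9 libraries and 0.47 within the prefixes. Tap1 was at rank 1742 of 12300 genes by r with Psmb9, and Psmb9 at rank 257 by r with Tap1. Nlrc5 had r of 0.53 to 0.65 with H2-K1, H2-D1, B2m and Tap1, and of -0.04 to 0.19 with Tap2, Tapbp and the 3 immunoproteasome subunits.

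The slope of each gene on log2 Nlrc5 across the 9 clones was tested with limma, over 14704 genes. No gene passed an adjusted p of 0.05 (0%), and at an unadjusted p under 0.05 there were 425 genes (2.89%). None of the 9 other members was among either, and voom on the recovered reads also called 0 genes, with 443 at an unadjusted p under 0.05. The slopes were highest for H2-D1 (0.45, SE 0.26), H2-K1 (0.43, SE 0.23), Tap1 (0.40, SE 0.20) and B2m (0.33, SE 0.18), in log2 units per log2 unit of Nlrc5. The slopes of Psmb8 (-0.03, SE 0.22) and Psmb10 (0.01, SE 0.18) were close to 0, and their sign changed under other settings. The median over the 9 members was 0.22, against 0.00455 over all genes. It was 0.0109 with the prefix as a term, which was fitted on the B and C libraries only. The slopes of Psmb9 and Tap2 were then also near 0. The median was 0.161 without A, 0.140 without C1, 0.347 without B4 and 0.357 without C4.

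Mettl3, the transgene, was at 2184 normalized counts in A and at 468 to 621 in the other 8 libraries, so the slope on Mettl3 mainly sets A against the rest. Of 14704 genes 323 were called (2.2%, 51 with a positive and 272 with a negative slope), and none of the 10 members was. Of the members, H2-K1 (0.07, SE 0.13) and Psmb8 (0.03, SE 0.11) had a positive slope, Tapbp (-0.20, SE 0.13) and Psmb9 (-0.19, SE 0.19) had the lowest, and the median over the 10 was -0.06. Without A, 0 genes were called by limma, and all 10 members had a positive slope, with a median of 1.03, against 54.1% of all genes with a positive slope. At an unadjusted p under 0.05 there were then 5 of the 10 members and 1632 genes (11.1% of all). The fit with the prefix as a term also left out A. It called 0 genes, with 362 at an unadjusted p under 0.05, and 8 members had a positive slope. The sign of the members on Mettl3 therefore rests on library A.

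**Figure D3:**
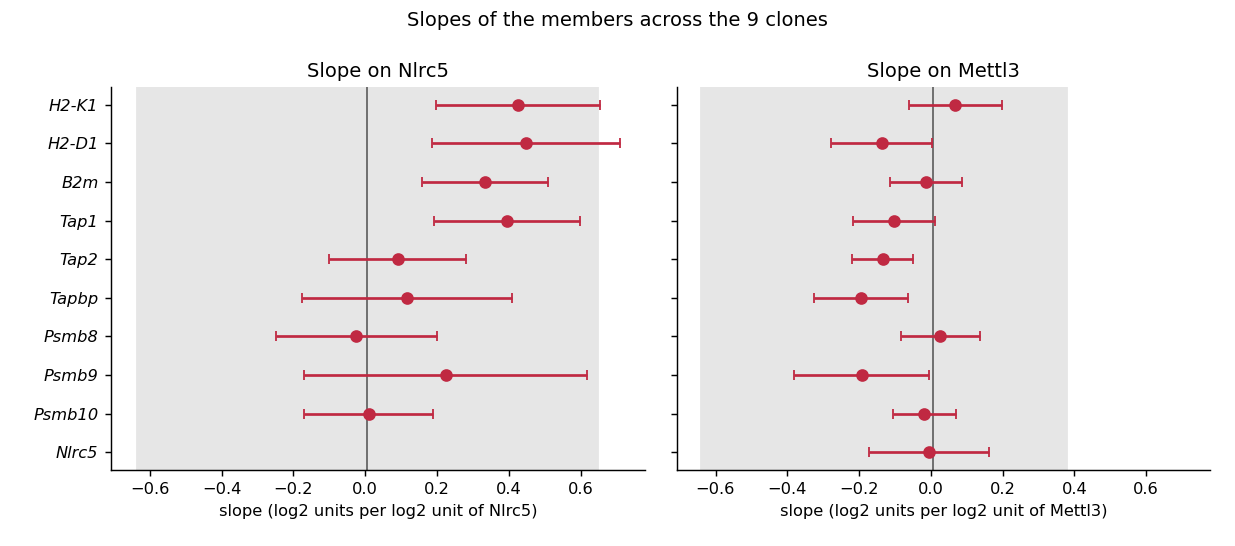
Slope (horizontal axis, log2 units per log2 unit of Nlrc5 on the left and of Mettl3 on the right) of each member across the 9 clones; bars are ± 1 SE, the grey band holds the middle of all 14704 genes from the 5th to the 95th percentile, and the line is their median. The members lie from -0.03 to 0.45 on Nlrc5 and from -0.20 to 0.07 on Mettl3, inside the band of all genes on both sides.

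The genes around the members fell into sets that did and did not share their order, described here by r with the members' mean z-score over the 9 libraries, among genes averaging 50 or more normalized counts. Over all genes 52.3% had a positive r, and the median was 0.05. Of 11 other MHC class I genes compared, 9 had a positive r, with a median of 0.60. H2-T10 was at r = -0.56. Of 14 other class I genes tested for ranges, 2 had B above C, beside 5.74% of all genes. They were H2-M3 (446 to 747 normalized counts) and the low H2-Q6 (0 to 23.2). H2-Q6 rested on 0 to 16 reads and was not among the 11 compared by r. Of 10 peptide loading and trimming genes, 4 had a positive r, with a median of -0.35. The chaperones Calr, Canx and Pdia3, which serve glycoproteins at large, were at r = -0.66, -0.56 and -0.76 (-0.56, -0.62 and -0.58 within the prefixes). The trimming peptidase Erap1 was at 0.70 (0.20 within the prefixes). All 3 constitutive catalytic subunits and all 11 other 20S subunits had a negative r, with medians of -0.59 and -0.54 (-0.32 and -0.13 within the prefixes). Of 9 proteasome activators and assembly factors, 4 had a positive r. Psme1 and Psme2, which form the interferon-responsive PA28 cap, were at r = 0.80 and 0.57 (0.53 and 0.11 within the prefixes).

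Of 20 regulators compared, 15 had a positive r with the members' mean z-score, with a median of 0.76 (0.50 within the prefixes). Irf1, a direct activator of these genes, was at 798, 1104 and 1702 normalized counts in its lowest, median and highest library. C2 was its lowest and B3 its highest library, as for H2-K1, B2m, Psmb8 and Psmb9. Irf1, Irf2, Irf8, Ifnar1 and Ifnar2 were the 5 of 22 regulators with the B range above C, beside 5.74% of all genes. Stat2, which joins Irf9 in the response to type I interferon, was at r = 0.96 and Irf9 at 0.78. The kinases Jak1 and Jak2 were at -0.26 and -0.75 (0.47 and -0.38 within the prefixes). Rfx5, which binds the X box of class I promoters with its partners Rfxap and Rfxank, was at -0.07 (0.40 within the prefixes), Rfxap at 0.33 and Rfxank at 0.60. Of 12 interferon-stimulated genes compared, 11 had a positive r, with a median of 0.44, and Isg15 was at 0.11. Of the 16 interferon-stimulated genes tested, 0 had the B range above C, beside 5.74% of all genes, and their median log2 difference of B minus C was 0.39. On Nlrc5 all 16 of them had a positive slope, beside 50.9% of all genes, with none called. Their median slope was 0.97, against 0.22 for the members. C3 was the lowest and C4 the highest library for Nlrc5, and also for Isg15, Ifit1, Ifit2, Ifit3, Mx2, Irf7, Bst2 and Ifi44. The other genes of the list had another lowest or highest library. These slopes are over all 9 libraries, with no prefix term. Ifnb1 and Ifng were not listed in the table.

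By the rule of the highest r with the mean z-score of the members among 12291 genes, the most alike were Parp14 (0.99), Sppl2a (0.98), Slc25a45 (0.98), Frmd4b (0.98), 9030025P20Rik (0.98), Ldlrad3 (0.97), C1qc (0.97), Slfn8 (0.97), Acp2 (0.97) and Gm10521 (0.97). The lowest were Fkbp10 (-0.98), Zfp948 (-0.98), Tubb2b (-0.97), Msantd3 (-0.97) and Tnfaip1 (-0.97). These are extremes out of many genes over 9 libraries, and 8.87% of all genes had r of at least 0.8.

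Markers of cell types moved with the members. Of 16 macrophage markers, 15 had a positive r with the members' mean z-score, with a median of 0.81 (0.74 within the prefixes), against a median of 0.05 over all genes. C1qb, C1qc, Fcgr3 and Adgre1 were at r = 0.97, 0.97, 0.96 and 0.94. Of 12 fibroblast markers compared, 1 was positive, with a median of -0.68 (-0.37 within the prefixes). The summed macrophage markers were at 588654 normalized counts in C2, the lowest library for 5 members, and at 860310 in B3, the highest for 7. The summed fibroblast markers were at 1011080 in C2 and 369380 in B3, and so the highest and the lowest of the 9. C4 had the highest macrophage sum (930343), of which Lyz2 made up 577311, with a fibroblast sum of 687950. Without Lyz2 the sum of the other 15 macrophage markers was highest in B3 (424908) and lowest in C2 (246738), with C4 at 353031. In C1 both sums were low (612912 for macrophage and 513106 for fibroblast markers) while the members' mean z-score was -0.93. The markers' part in the members' order was not tested. On Nlrc5, 13 of 16 macrophage markers (median 0.32) and 6 of 14 fibroblast markers (median -0.16) had a positive slope, beside 50.9% of genes. None of these markers was called. Of 6 acinar markers, 1 had a positive slope on Nlrc5 (median -3.55) and none was called. Their sum was 2415 normalized counts in C3, the lowest library for Nlrc5, against 144 to 396 in the other 8, and their part in the slopes was not tested.

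**Figure D4:**
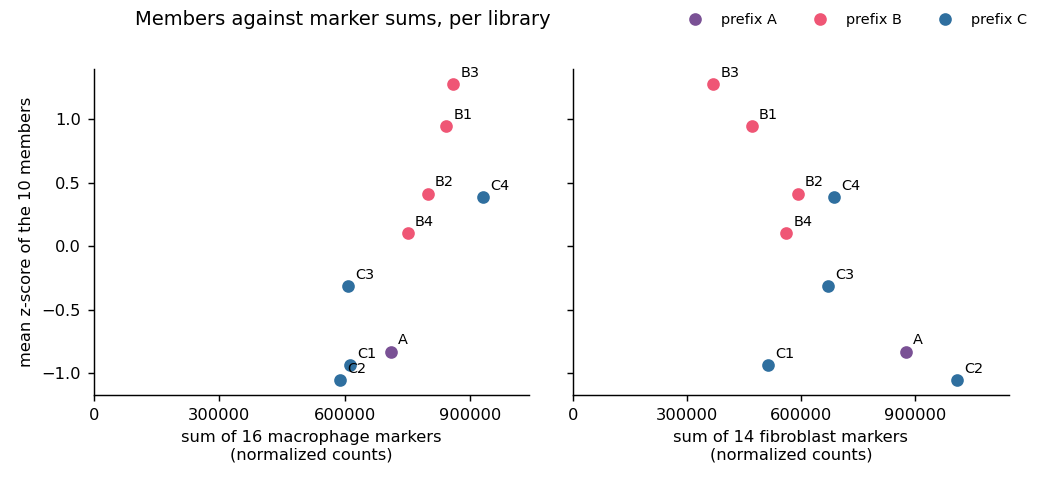
Mean z-score of the 10 members (vertical axis) in each library against the sum of 16 macrophage markers and the sum of 14 fibroblast markers (horizontal axes, normalized counts, from 0). Points are the 9 libraries, coloured by prefix; B3 is at the top with 860310 and 369380 normalized counts of the marker sums, and C2 at the bottom with 588654 and 1011080.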

How the data were processed

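Stranded mRNA libraries were made from 9 WTg clones. For 18049 genes the authors deposited a log2 value per library, and 18033 of their identifiers were found in the gene name table used here. The submitters' processing notes name FastQC 0.11.9, STAR 2.7.10, RSEM 1.3.3 and GRCm38, with no role stated. The scaling software is not given in the sources used here. The same table holds 6 columns of MEF libraries from other series, which were not used here, so clones are not compared with MEFs.

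Normalized counts were obtained as 2 to the power of the value minus the offset of 4, and 100% of the nonzero values below 1000 reads came within 0.1 read of a whole number, with 1 read worth 1.26 to 2.19 normalized counts. Wilson intervals (95%) and the floor of 3 reads cover counting error only. Each gene's slope on log2 Nlrc5 or Mettl3 was tested (two-sided) with limma 3.58.1 (R 4.3.3, lmFit, eBayes with a trend) on the deposited log2 values, for genes averaging 10 or more normalized counts, with Benjamini-Hochberg adjustment over all genes and a threshold of 0.05. The predictor gene was left out. These p-values measure the spread between clones, and whether clones share a tumor or mouse is not stated. The slopes on 1 further planned predictor and 1 cell type marker are not reported here. Other results are descriptions with no test. Correlations used genes averaging 50 or more. Promoter sequences are RefSeq's of GRCm38.p6, and motifs were searched in the 250 bases before each start, where none of the matches in members overlapped another. Python 3.11.15 with numpy 2.4.6, pandas 2.3.3 and Biopython 1.88 was used.

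The scripts were tested on simulated data, in which 200 genes were given a known slope. On Nlrc5, 32.5% of them were called at a slope of 1 and 82% at a slope of 2. The slopes of the members on Nlrc5 were at most 0.45, so the lack of calls cannot show that there is no association. Members and lists were chosen with earlier results of these data known. The genes named are the members, those of the lists, Mettl3, and the 10 highest and 5 lowest by r with the members' mean z-score. Alternatives were a pseudocount of 1, no filter, a filter at 50, upper quartile and total scaling, limma without a trend, voom on recovered reads, the prefix as a term, and leaving out each library. The prefix term was fitted on the B and C libraries only, since prefix A has 1 library.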

Additional observations from a re-analysis of the deposited data

How the results depend on the processing

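All 9 clones are of 1 condition, so each slope rests on the order of 9 libraries. On Nlrc5 no gene was called under any of the 16 alternatives run, and H2-K1, H2-D1, B2m and Tap1 kept a positive slope of at least 0.273 under each. The slopes of Tap2 and Psmb9 fell to 0.0109 and 0.00964 with the prefix as a term. The count of genes called on Mettl3 was 60 with voom, 0 with the prefix as a term, and 0 to 417 when 1 library was left out (0 without A). The median slope of the members on Mettl3 was 0.59 with the prefix as a term and -0.09 to 1.03 when 1 library was left out. On Nlrc5, the slope of Tapbp was -0.0384 with the prefix as a term. The slope of Psmb10 on Nlrc5 was -0.0158 with voom and -0.0770 with the prefix as a term. With 1 library left out, the slope on Nlrc5 was -0.0658 to 0.0475 for Psmb8 (positive without B4, C3 or C4) and -0.0368 to 0.205 for Psmb10 (negative without A, B1, B2, B3 or C1). The cause of these changes was not tested. No paired analysis was possible because the labels hold 1 group only. Of 231 values recomputed, 215 kept their direction and side of the threshold, moved by less than 1 SD, or were counts that changed less. Of the rest, 11 changed sign, 2 moved further and 3 were counts of genes called on Mettl3 that fell to 60 or 0. Counts that fell less are among the 215, such as 250 genes called on Mettl3 without B4, and 2 members apart with total scaling. The 215 include slopes under settings that cannot change them. Depth limits Psmb9 most, with 123 to 404 reads.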
